A study of Mus musculus with 26 samples.

Results

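A set of 10 genes of protein entry into, and exit from, the endoplasmic reticulum (ER) were followed: the translocon genes Sec61a1, Sec61b, Sec61g, Sec62 and Sec63, and the COPII coat genes Sec13, Sec23b, Sec24a, Sec24c and Sec24d. They were found by gene name, and all 10 had a value in each of the 26 libraries, out of 25146 gene lines used. The libraries are 3′-end RNA-seq of sorted mouse cells, made from 1 ng of RNA, with 2 replicates in each of 13 groups. B cell is B220+ spleen cells of mice aged 8 to 10 weeks. Blast, prePB and PB are such B cells after 3 days in 10 ng/mL LPS and 2 ng/mL IL-4, sorted as BLIMP1 reporter-negative CD138-negative activated blasts, reporter-positive CD138-negative pre-plasmablasts and reporter-positive CD138-positive plasmablasts. E16.5_emIE is intestinal epithelium (EpCAM+) of embryonic stage E16.5 sorted for the reporter, while P3_IE and P14_IE, of postnatal days 3 and 14, were sorted as reporter-negative, so that age and gate changed together. The 5 retinal groups are photoreceptor precursors (PRP), namely P0_PRP_GFP+ (reporter-positive, postnatal day 0), P4_PRP_GFP+CD73- (reporter-positive, CD73-negative, day 4) and CD73-positive cells of days 4, 6 and 10 (P4_PRP_CD73+, P6_PRP_CD73+, P10_PRP_CD73+). All cells of these 3 tissues, B cells and blasts included, came from C57BL/6 mice homozygous for an EGFP-BLIMP1 knock-in. The d2 PGCLC group is different in kind: primordial germ cell-like cells made in culture from transfected embryonic stem cells of mixed C57BL/6 and 129 background with Blimp1-mVenus, stella-ECFP and Rosa26-rtTA, induced for 2 days with 500 ng/mL BMP4, 500 ng/mL BMP8A, 100 ng/mL SCF, 1000 U/mL LIF and 50 ng/mL EGF, and sorted for the Blimp1-mVenus reporter.

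A protein bound for secretion enters the ER through a membrane channel built of Sec61 alpha (Sec61a1 or its paralog Sec61a2), Sec61 beta (Sec61b) and Sec61 gamma (Sec61g). Sec62 and Sec63 attach to that channel and help precursors that enter poorly on their own, and Sec63 brings the chaperone BiP to its lumenal side. Folded cargo leaves in vesicles coated by COPII, whose inner layer is a Sec23 and Sec24 pair and whose outer cage is Sec13 and Sec31. Sec24 binds the cargo, and its 4 mammalian forms fall into a Sec24a and Sec24b pair and a Sec24c and Sec24d pair that differ in the export signals they read. Plasmablasts are the antibody-secreting descendants of B cells, and BLIMP1 (gene Prdm1) is the transcription factor that marks and drives that change.

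Depth, read off the smallest steps in the values, lay between about 1720000 and 6040000 reads per library, so that 1 read was worth between 0.583 and 0.166 RPM (reads per 1000000). The labels did not say whether the 2 replicates of a group came from separate animals or cultures, and the p-values here reflect only how far these samples spread, which may be technical. The sorted identities held at the marker level: the 5 B-lineage markers summed to 1925 to 9955 RPM in the 8 B-lineage libraries and to at most 16.9 RPM elsewhere, and the 5 intestinal, 5 photoreceptor and 5 germ cell-like markers were highest in their own tissues. Sorted B cells also held 389 to 507 RPM of 11 T, NK and myeloid markers, against 5.95 to 28.8 RPM in the 6 cultured libraries, and the part of this in the values of B cell was not tested. In plasmablasts the gene lines used here summed to only 650799 and 688942 RPM, against 827448 or more in the other B-lineage libraries, and the median gene was lower by 0.64 (log2) in PB than in Blast. Results are given on RPM as deposited, and the counts over the set also after median-of-ratios scaling, which sets the bulk of genes level. In bulk samples fewer cells of a type and less RNA per cell cannot be told apart. RPM carries no length correction, so levels are compared between groups and not between genes. The share of a paralog in its family is likewise read between groups, and not as a measure of which paralog is most abundant.

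The largest movement in the set was that of Sec24d, a cargo-binding COPII subunit whose human gene is mutated in a brittle-bone syndrome. Its level was 21.4 and 16.9 RPM in B cell, 9.39 and 4.05 RPM in Blast, 100.1 and 116 RPM in prePB, and 177 and 178 RPM in PB. All 4 prePB and PB libraries lay above the 4 Blast and B cell libraries, and the 2 Blast libraries were the lowest. Sec24d rose in prePB over Blast by a log2 fold change of 3.91 ± 0.28 (SE; limma adjusted p = 3.93e-07), rank 10 among the 9871 genes tested by size of rise. It fell by 1.47 ± 0.28 in Blast against B cell (limma adjusted p = 0.00059), and rested there on 1 library, since the change was -0.95 without Blast replicate 2 and no longer called. In the same comparison 5 plasmablast markers summed to 253 to 258 RPM in Blast, with Sdc1 (CD138) at 0, and to 1996 to 2178 RPM in B cell. Prdm1, Bhlha15 and Creb3l2, of the plasmablast program, also fell there, by 1.52, 1.61 and 2.06 on the log2 scale, and their part in the fall of Sec24d was not tested. All fold changes are on the log2(RPM + 1) scale, which understates those of low genes. A call required an adjusted p under 0.05 and a log2 change of at least 1 in size.

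Sec24a, a cargo-binding subunit of the other Sec24 pair, rose in prePB over Blast. It had 23.2 and 18.3 RPM in B cell, 19.3 and 18.2 RPM in Blast, 38.2 and 55.5 RPM in prePB, and 98.7 and 83.9 RPM in PB. B cell and Blast overlapped, prePB stood above both, and PB stood above prePB. The change of Sec24a was 1.25 ± 0.23 in prePB against Blast (limma adjusted p = 0.00194) and 0.97 ± 0.23 in PB against prePB (limma adjusted p = 0.00788), just short of the fold threshold. Without prePB replicate 2 the first of these was 0.99 and not called, while the second became 1.23 and called, as it did at 1.08 without PB replicate 2.

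Sec24c, the partner of Sec24d in its pair, did not follow it. Sec24c had 129.8 and 122 RPM in B cell, 66.5 and 98.2 RPM in Blast, 93.4 and 97.7 RPM in prePB, and 86.8 and 78.7 RPM in PB. The 2 B cell libraries were the highest, and the Blast libraries lay on either side of those of prePB and PB. It passed the call in none of the 14 comparisons on RPM as deposited, and its change in PB against Blast was 0.03 ± 0.19 (limma adjusted p = 0.9). After scaling that change was 0.68 (limma adjusted p = 0.00973), under the fold threshold. In PB against B cell Sec24c changed by -0.60 ± 0.19 as deposited (limma adjusted p = 0.0125) and by 0.14 after scaling. Sec24b, outside the set, stood at 67.7 and 74.2 RPM in B cell, 52.0 and 51.1 RPM in Blast, 30.2 and 54.9 RPM in prePB, and 21.5 and 21.8 RPM in PB. Its change in PB against Blast was -1.21 ± 0.25 (limma adjusted p = 0.000791), and after scaling it was -0.58 and not called.

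**Figure D1:**
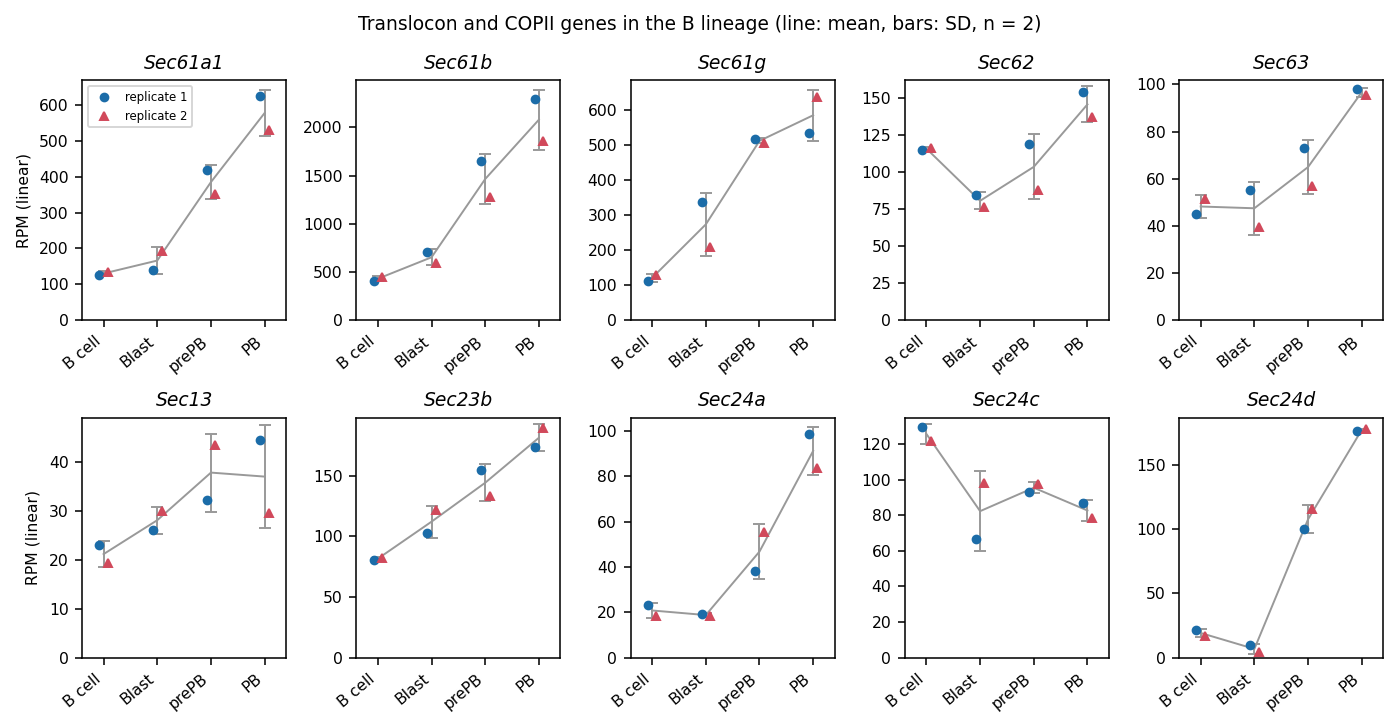
RPM of the 10 genes in the B lineage, from B cell to PB, on linear axes that start at 0. Circles and triangles are the 2 libraries of a group, the line joins the means and bars are SD (n = 2). Sec24d lies at 4.05 to 21.4 RPM in B cell and Blast and at 100.1 to 178 RPM in prePB and PB, while Sec24c has its highest values in B cell.

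The 250 bases before the start of each Sec24 gene are shown because the 4 paralogs parted ways (RefSeq, GRCm38.p6, 5′ to 3′ along the gene). Capitals mark TGACGTGG, known as the unfolded protein response element (UPRE), and CCACG and CCAAT, the 2 ends of the ER stress response element (ERSE), each on either strand; the UPRE contains CCACG on its other strand.
Sec24d, chr3:123267246-123267495, plus strand: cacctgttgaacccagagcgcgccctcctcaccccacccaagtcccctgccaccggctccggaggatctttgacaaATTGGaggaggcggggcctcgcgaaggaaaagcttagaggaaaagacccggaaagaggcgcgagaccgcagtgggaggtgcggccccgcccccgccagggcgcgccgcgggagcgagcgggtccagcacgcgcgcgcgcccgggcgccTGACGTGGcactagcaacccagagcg
Sec24c, chr14:20674071-20674320, plus strand: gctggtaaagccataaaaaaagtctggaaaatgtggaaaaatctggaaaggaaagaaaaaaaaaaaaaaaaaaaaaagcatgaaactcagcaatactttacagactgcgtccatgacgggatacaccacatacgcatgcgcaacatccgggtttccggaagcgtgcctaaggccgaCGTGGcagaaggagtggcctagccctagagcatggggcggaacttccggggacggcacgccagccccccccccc
Sec24a, chr11:51756835-51757084, minus strand: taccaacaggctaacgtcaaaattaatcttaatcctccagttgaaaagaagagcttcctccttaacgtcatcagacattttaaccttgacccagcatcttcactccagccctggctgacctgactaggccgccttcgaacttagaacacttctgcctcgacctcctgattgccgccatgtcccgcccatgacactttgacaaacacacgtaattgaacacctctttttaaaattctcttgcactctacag
Sec24b, chr3:130060908-130061157, minus strand: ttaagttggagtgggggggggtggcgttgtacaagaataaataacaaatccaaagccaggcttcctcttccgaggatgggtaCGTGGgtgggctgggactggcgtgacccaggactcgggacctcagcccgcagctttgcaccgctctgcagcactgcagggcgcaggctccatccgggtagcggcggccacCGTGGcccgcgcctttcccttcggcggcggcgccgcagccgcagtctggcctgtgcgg
Among the 9 members with such a window, Sec24d alone held TGACGTGG, starting 26 bases before the table's start, and 0.563% of the 32851 windows of this length in the table held it. CCACG was found in 3 of the 9, Sec24d, Sec24c and Sec63, and in 28.3% of all windows. CCAAT was found in 4 of the 9, among them Sec24d, where it lies on the minus strand 174 bases before the start, and in 33.8% of all windows. The whole ERSE (CCAAT, any 9 bases, then CCACG), held by 0.113% of windows, and ERSE-II (ATTGG, any base, then CCACG), held by 0.0304%, matched none of the 9. GTGAAAG, a core of the sites BLIMP1 binds, was found among the 9 before Sec61b only, on the minus strand, and in 3.57% of windows. Outside the set it was also found before the paralog Sec23a. The Sec24a window held none of these letters and the Sec24b window held CCACG in 2 places. A match describes letters and not a bound site. The table's start lies inside the RefSeq gene span for all 4 Sec24 genes, by 2695 bases for Sec24d, 36 for Sec24c, 327 for Sec24a and 692 for Sec24b, so the span of each gene begins further upstream than the start used here.

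Expressed as a share of the summed RPM of the 4 Sec24 paralogs, Sec24d made up 46.1% and 49.2% in PB and 38.2% and 35.7% in prePB, against 6.38% and 2.36% in Blast and 8.85% and 7.29% in B cell. The share of Sec24c ran the other way, with 22.6% and 21.7% in PB and 35.7% and 30.2% in prePB, against 45.2% and 57.2% in Blast and 53.6% and 52.7% in B cell. The 4 shares add up to the whole, so a rise of Sec24d alone lowers the others. On RPM as deposited Sec24c itself passed the call in no comparison. The sum itself was 384 and 363 RPM in PB and 262 and 324 RPM in prePB, against 147 and 172 RPM in Blast and 242 and 231 RPM in B cell. A plain ratio within a library does not depend on how that library is scaled. For the test 1 RPM was added to the member and to the summed other paralogs, so ratios with low values keep some dependence on scaling. Such ratios, 5 in number, were tested between the 4 libraries of prePB and PB and the 4 of Blast and B cell. The prePB and PB cells were sorted as reporter-positive, Blast as reporter-negative and B cell without the reporter. The mean log2 ratio of Sec24d to its paralogs was -0.45 ± 0.38 in prePB and PB and -3.92 ± 0.78 in Blast and B cell (SD, n = 4 each), a difference of 3.48. That of Sec24c was -1.41 ± 0.47 and 0.13 ± 0.29, a difference of -1.54, and that of Sec24a was -2.005 ± 0.462 and -3.08 ± 0.34, a difference of 1.08, prePB and PB before Blast and B cell (SD, n = 4 each). For each of the 3 the groups did not overlap, and a two-sided exact permutation test gave p = 0.0286, the smallest that 4 against 4 allows, or 0.0357 adjusted over the 5 ratios. For all 5 ratios each side pooled 2 groups of 2 libraries, which the test treated as 4 independent libraries. The p-values therefore speak for neither group alone. The 3 Sec24 ratios are built from the same 4 paralogs, so they are not independent results. The call on Sec24a was lost, at an adjusted exact p of 0.0714, in 4 of the runs that left out 1 library (either B cell library, Blast replicate 2 or PB replicate 1), where its difference lay between 0.92 and 1.10.

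**Figure D2:**
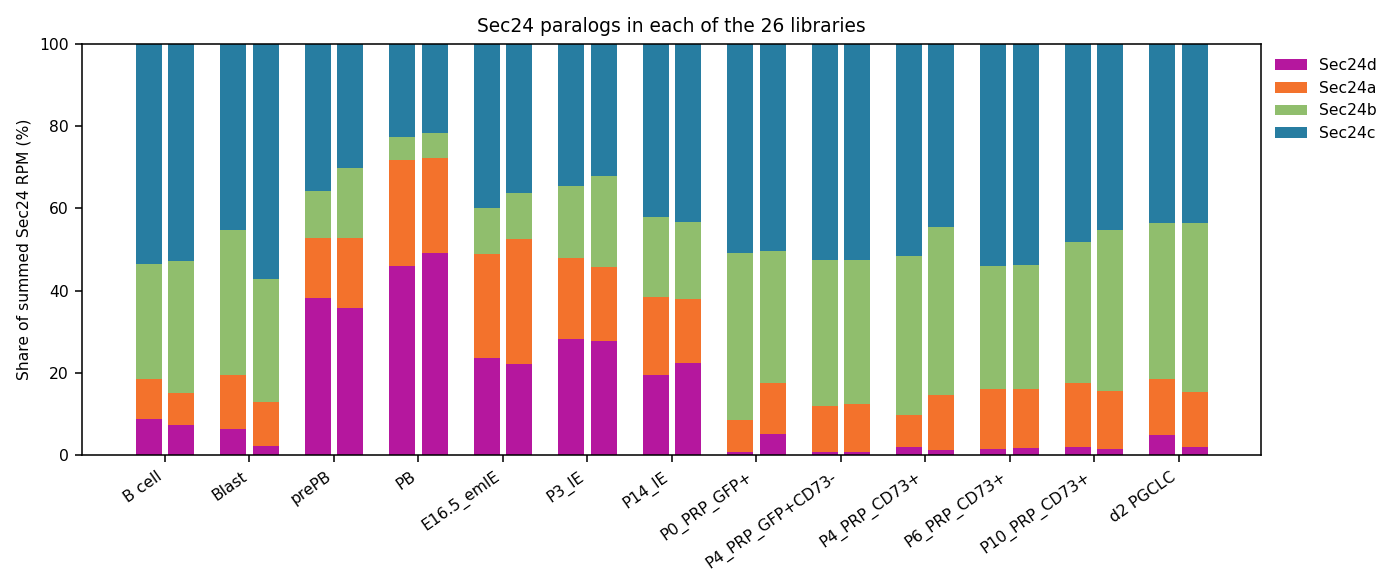
Share of each Sec24 paralog in the summed Sec24 RPM, 1 stacked bar per library and 2 libraries per group. Sec24d takes 35.7% to 49.2% in prePB and PB, 19.6% to 28.3% in the intestine, and at most 8.85% in every other library.

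Sec23b is the partner of Sec24 in the inner coat, and its loss in humans causes an inherited anemia. Its level was 80.7 and 82.6 RPM in B cell, 102.8 and 122 RPM in Blast, 155 and 134 RPM in prePB, and 174 and 189 RPM in PB, with no overlap between one stage and the next. No single step was called, and the sum of the steps was: PB exceeded B cell by 1.14 ± 0.16 (limma adjusted p = 3.19e-05), or by 1.89 after scaling. In PB against Blast its change was 0.69 and not called as deposited, and 1.35 and called after scaling. A shift in paralog use was not detected. Sec23b made up 81.3% and 82.3% of Sec23 RPM in PB and 85.7% and 81.5% in prePB, against 81.8% and 86.6% in Blast and 84.7% and 81.7% in B cell. Its log2 ratio to Sec23a was 2.23 ± 0.21 in prePB and PB and 2.31 ± 0.25 in Blast and B cell (SD, n = 4 each; two-sided exact permutation p = 0.6, also after adjustment), and the groups overlapped. Sec23a itself was 39.98 and 40.8 RPM in PB, against 22.8 and 18.8 RPM in Blast.

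Sec13 serves both in the outer COPII cage and in the Y-shaped scaffold of the nuclear pore. It was a low gene here, with 23.0 and 19.3 RPM in B cell, 26.1 and 30.0 RPM in Blast, 32.2 and 43.5 RPM in prePB, and 44.5 and 29.5 RPM in PB. The 3 cultured groups overlapped in part, and the change in PB against Blast was 0.36 ± 0.26 (limma adjusted p = 0.244). After scaling it was 1.01 and called. Of the other genes of the nuclear pore Y complex 7 of 8 fell in PB against Blast, where 30.9% of all genes fell. After scaling 3 of 8 fell there, where 11.4% of all genes fell. Among them Nup43 had 17.1 ± 1.7 RPM in PB and 57.2 ± 4.9 RPM in Blast (SD, n = 2 each), Nup37 22.0 ± 7.8 RPM in PB and 69.3 ± 2.5 RPM in Blast, and Nup98 2.19 ± 0.11 RPM in PB and 10.4 ± 6.1 RPM in Blast. The fall depended on Blast as the reference. In PB against B cell 3 of 8 Y complex genes fell, where 40.5% of all genes fell. After scaling 0 of 8 fell in that comparison, where 1983 of 10157 genes did. In Blast against B cell 3 of 8 rose, where 12.3% of all genes rose.

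The 3 subunits of the Sec61 channel had higher mean RPM at each later stage of the B lineage. Sec61a1, the pore itself, had 125.5 and 135 RPM in B cell, 139.9 and 192 RPM in Blast, 419 and 352 RPM in prePB, and 624 and 532 RPM in PB. The stages did not overlap. Sec61a1 rose in prePB against Blast by 1.22 ± 0.18 (limma adjusted p = 0.000299), with a change of 0.99 and no call without Blast replicate 1, and PB exceeded Blast by 1.81 ± 0.18 (limma adjusted p = 1.6e-06).

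Sec61b, the beta subunit, had 411 and 448 RPM in B cell, 709 and 594 RPM in Blast, 1647 and 1280 RPM in prePB, and 2298 and 1860 RPM in PB, again with no overlap. It rose by 1.16 ± 0.18 in prePB against Blast (limma adjusted p = 0.00053), a change that was 0.98 and not called without prePB replicate 1. Sec61g, the gamma subunit, had 112.4 and 129 RPM in B cell, 337 and 209 RPM in Blast, 517 and 507 RPM in prePB, and 534 and 636 RPM in PB. It was the one member that rose in Blast against B cell, by 1.14 ± 0.20 (limma adjusted p = 0.000295), and that call was lost without Blast replicate 1, at 0.79. Its change in prePB against Blast was 0.94 ± 0.20 (limma adjusted p = 0.00453), and 1.29 and called without Blast replicate 1. PB exceeded Blast by 1.13 ± 0.20 (limma adjusted p = 0.000278), which was 0.79 and not called without Blast replicate 2. In PB against prePB its change was 0.19 ± 0.20 (limma adjusted p = 0.513).

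Counting could split reads of Sec61g and Sec61b with near copies. At 90% identity over 100 bases or more, Sec61g transcripts matched 12 other genes, 6 of them in the table, and Sec61b matched 3, none in the table. The other 8 members had no such match. The near copy Gm10177, annotated as a processed transcript, ran at 36.7% to 50.3% of Sec61g in all 26 libraries. Of the deposited values, converted to reads, 2 of 26 Sec61g values and 11 of 26 Sec61b values were whole numbers of reads (within 0.05 read), against 26 of 26 for 7 of the members and 19 of 26 for Sec13. The levels of Sec61g and Sec61b are therefore uncertain by the part their copies hold.

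The paralog Sec61a2 was at 9.92 and 5.62 RPM in PB and 9.46 and 8.39 RPM in prePB, against 20.3 and 16.8 RPM in Blast and 14.8 and 18.1 RPM in B cell. Sec61a2 fell in PB against Blast by 1.19 ± 0.33 (limma adjusted p = 0.00638), which became -0.61 and not called after scaling. Within a library Sec61a1 made up 98.4% and 99.0% of Sec61 alpha RPM in PB and 97.8% and 97.7% in prePB, against 87.3% and 92.0% in Blast and 89.5% and 88.2% in B cell. The log2 ratio was 5.68 ± 0.51 in prePB and PB and 3.00 ± 0.32 in Blast and B cell (SD, n = 4 each), with no overlap (two-sided exact permutation p = 0.0286, adjusted 0.0357).

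Sec62 and Sec63, which assist the channel, had their highest B-lineage values in PB. Sec62 had 114.8 and 116 RPM in B cell, 84.5 and 76.3 RPM in Blast, 118.7 and 87.8 RPM in prePB, and 154 and 137 RPM in PB, so that Blast was lowest and PB highest. Sec63 had 44.9 and 51.5 RPM in B cell, 55.3 and 39.6 RPM in Blast, 73.0 and 57.0 RPM in prePB, and 98.1 and 95.4 RPM in PB, with PB above all other B-lineage libraries. PB exceeded Blast by 1.03 ± 0.21 for Sec63 (limma adjusted p = 0.000729), which was 0.79 and not called without Blast replicate 2, and by 0.85 ± 0.18 for Sec62 (limma adjusted p = 0.00108), under the fold threshold. After scaling the change of Sec62 was 1.50 and called, and that of Sec63 was 1.69.

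Counted over the set, 1 of 10 members rose and 1 fell in Blast against B cell, where 12.3% of all genes tested rose and 21.8% fell. In prePB against Blast 4 of 10 rose (Sec24d, Sec24a, Sec61a1 and Sec61b) and none fell, where 4.43% of genes rose and 5.83% fell. With 1 library left out the changes of Sec24a, Sec61a1 and Sec61b went as low as 0.99, 0.99 and 0.98, under the fold threshold. In PB against prePB limma called none of the 10, where 1.26% of genes rose and 11.7% fell. Sec24a, Sec61a1, Sec62 and Sec63 had a limma adjusted p under 0.05 there. Their changes of 0.97, 0.59, 0.50 and 0.58 were under the fold threshold. In that comparison 6 members had an unadjusted p under 0.05, and 1 member, Sec24a, was called without prePB replicate 2 or PB replicate 2. Without either Blast library 1 member was called in Blast against B cell, in place of 2. In PB against Blast 6 of 10 rose (Sec24d, Sec24a and the 3 Sec61 subunits with Sec63; the calls on Sec61g and Sec63 were lost without Blast replicate 2) and none fell, where 6.66% of genes rose and 30.9% fell; the median member was at 1.08 and the median gene at -0.64. In PB against B cell 6 of 10 rose, with Sec23b in place of Sec63, where 7.2% of genes rose and 40.5% fell, with the median member at 1.62 and the median gene at -0.77.

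Median-of-ratios scaling raised the counts. With it, 5 members rose in prePB against Blast, where 5.89% of genes rose, and 9 rose in PB against Blast and in PB against B cell, where 13.3% and 16.3% of genes rose. In PB against prePB, where no member was called on RPM as deposited, 4 rose after scaling (Sec24a, Sec24d, Sec61a1 and Sec63), where 3.83% of genes rose and 4.2% fell. Sec24c was the one member not called in PB against Blast after scaling, at 0.68. These B-lineage comparisons share libraries, so their counts are not independent of each other.

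**Figure D3:**
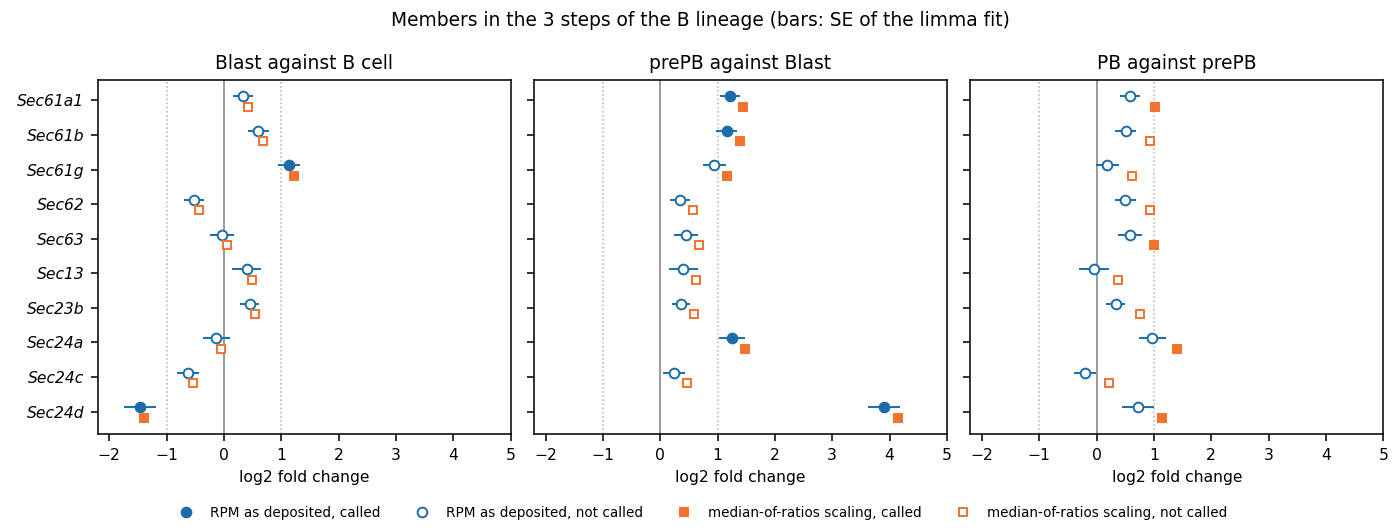
Log2 fold change of each member in the 3 successive steps of the B lineage, as fitted on RPM as deposited (circles, with SE) and after median-of-ratios scaling (squares). Filled symbols passed the call and dotted lines mark a change of 1 in size. Sec24d stands at -1.47, 3.91 and 0.72 in the 3 steps on RPM as deposited.

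In the intestine 1 call was made over both steps. Sec24d had 85.0 and 86.1 RPM in E16.5_emIE, 71.7 and 74.4 RPM in P3_IE, and 39.1 and 52.6 RPM in P14_IE, with no overlap between ages. Neither step was called, with the second at -0.68 ± 0.19 (limma adjusted p = 0.0268). Its share of Sec24 RPM stayed between 19.6% and 28.3%. That call was on Sec24a. It had 49.8 and 47.8 RPM in P3_IE and 90.03 and 119 RPM in E16.5_emIE and fell by 1.07 ± 0.20 (limma adjusted p = 0.000154). Without E16.5_emIE replicate 2 the change was -0.87 and not called. In that comparison 0 of 10 members rose and 1 fell, where 12.6% of genes rose and 8.2% fell. Goblet and enteroendocrine markers, 6 in number, summed to 3367 to 4027 RPM in P3_IE and 188 to 231 RPM in E16.5_emIE, and their part in the fall of Sec24a was not tested.

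In P14_IE against P3_IE limma called no member, where 1.99% of genes rose and 2.4% fell. It called none after median-of-ratios or quantile scaling either, and 2 members had an unadjusted p under 0.05. Sec61a1 was at 205 to 351 RPM, Sec61b at 424 to 617 RPM and Sec61g at 124 to 207 RPM over the 6 intestinal libraries. On RPM as deposited Sec13 reached its highest level of the series in E16.5_emIE, at 55.4 and 59.0 RPM. It was at 29.5 to 44.5 RPM in prePB and PB, against 41.3 to 59.0 RPM over the intestine, where PB against the intestine was at -0.39 as deposited and at 0.32 after scaling. Sec23b was 49.2% and 36.6% of Sec23 RPM in E16.5_emIE, 56.8% and 56.1% in P3_IE, and 62.6% and 73.5% in P14_IE, in each library below its share in the B lineage.

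In photoreceptor precursors Sec24d was a low gene. Its level was 1.58 and 10.2 RPM in P0_PRP_GFP+, 1.97 and 2.06 RPM in P4_PRP_GFP+CD73-, 5.89 and 3.17 RPM in P4_PRP_CD73+, 3.66 and 4.64 RPM in P6_PRP_CD73+, and 5.45 and 3.36 RPM in P10_PRP_CD73+. The 10 libraries overlapped across ages, and P0_PRP_GFP+ replicate 2 stood highest. Sec24c made up 44.6% to 54.0% and Sec24b 29.9% to 40.7% of the Sec24 RPM. Limma called no member in any of the 4 retinal comparisons, nor after quantile scaling. After median-of-ratios scaling it called none of the members tested, while Sec24d did not pass the filter and was not tested. On RPM as deposited 2, 1, 0 and 4 members had an unadjusted p under 0.05, in the order of the comparisons below. The share of all genes that rose and fell was 5.24% and 5.77% in P4_PRP_GFP+CD73- against P0_PRP_GFP+, 3.43% and 2.43% in P4_PRP_CD73+ against P4_PRP_GFP+CD73-, 1.56% and 1.14% in P6_PRP_CD73+ against P4_PRP_CD73+, and 3.33% and 7.62% in P10_PRP_CD73+ against P6_PRP_CD73+. Leaving out P0_PRP_GFP+ replicate 1 gave 1 call, of Sec24d in P4_PRP_GFP+CD73- against P0_PRP_GFP+, at -1.90.

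On RPM as deposited Sec62 had its highest values of the series in the retina, though PB against the retina changed sign after scaling. It was at 153 and 149 RPM in P0_PRP_GFP+, 273 and 257 RPM in P4_PRP_GFP+CD73-, 245 and 209 RPM in P4_PRP_CD73+, 235 and 219 RPM in P6_PRP_CD73+, and 260.3 and 241 RPM in P10_PRP_CD73+. The change in P4_PRP_GFP+CD73- against P0_PRP_GFP+ was 0.81 ± 0.13 (limma adjusted p = 0.000391), under the fold threshold. Sec61a1 made up 59.0% to 69.7% of Sec61 alpha RPM in the retina. Sec61a2 was at 5.62 to 9.92 RPM in prePB and PB, against 61.2 to 97.3 RPM in the retina.

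Set against the other lineages, plasmablasts held the highest mean of Sec61a1, Sec61b, Sec61g, Sec63, Sec23b and Sec24d among the 13 groups. Sec24d was at 177 and 178 RPM in PB, against 39.1 to 86.1 RPM in the intestine, 1.58 to 10.2 RPM in the retina, and 7.57 and 2.97 RPM in d2 PGCLC, where it rested on 13 and 8 reads. The log2 change of Sec24d in PB was 1.42 ± 0.38 against the intestine (mean of 3 groups; limma adjusted p = 0.00234), 5.24 ± 0.36 against the retina (mean of 5 groups; limma adjusted p = 6.29e-12) and 4.94 ± 0.47 against d2 PGCLC (limma adjusted p = 3.98e-09). Sec61b was the highest-ranked member against the intestine, with 2298 and 1860 RPM in PB against 424 to 617 RPM there, a change of 2.03 ± 0.12 (limma adjusted p = 1.03e-12).

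The order against other lineages depended on the scaling for some members. Sec61g was at 534 and 636 RPM in PB and at 425 and 409 RPM in d2 PGCLC, a change of 0.48 ± 0.23 (limma adjusted p = 0.0657) on RPM as deposited, and 1.44 and called after scaling. Sec62 was at 154 and 137 RPM in PB, against 149 to 273 RPM in the retina, a change of -0.60 ± 0.11 (limma adjusted p = 5.16e-05) that turned to 0.62 after scaling, so no direction can be given. Sec24c likewise had -0.53 ± 0.13 against the retina as deposited (limma adjusted p = 0.000575) and 0.68 after scaling. Against the intestine Sec24c and Sec13 were at -0.33 and -0.39 as deposited and at 0.39 and 0.32 after scaling. Sec24a was at 98.7 and 83.9 RPM in PB and at 90.03 and 119 RPM in E16.5_emIE, where the groups overlapped.

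In PB against the intestine 4 of 10 members rose and none fell, where 9.33% of genes rose and 37.6% fell. Against the retina 5 of 10 rose, where 11.1% of genes rose and 55.2% fell, and against d2 PGCLC 6 of 10 rose, where 10.1% rose and 43.7% fell. After scaling 8, 8 and 9 members rose, where 17.7%, 22.3% and 19.3% of genes did. These 3 comparisons share the PB libraries, and tissue, culture and age cannot be told apart in them, nor can the genetic background for d2 PGCLC.

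**Figure D4:**
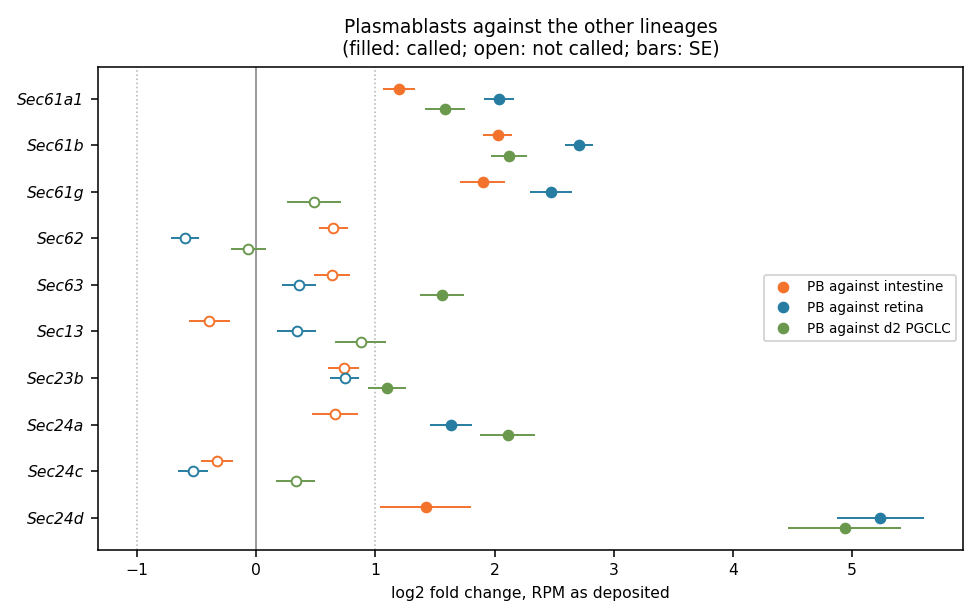
Log2 fold change of each member in PB against the intestine, the retina and d2 PGCLC on RPM as deposited, with SE. Filled points passed the call. Sec24d stands at 1.42, 5.24 and 4.94, while Sec62, Sec13 and Sec24c pass in none of the 3.

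**Figure D5:**
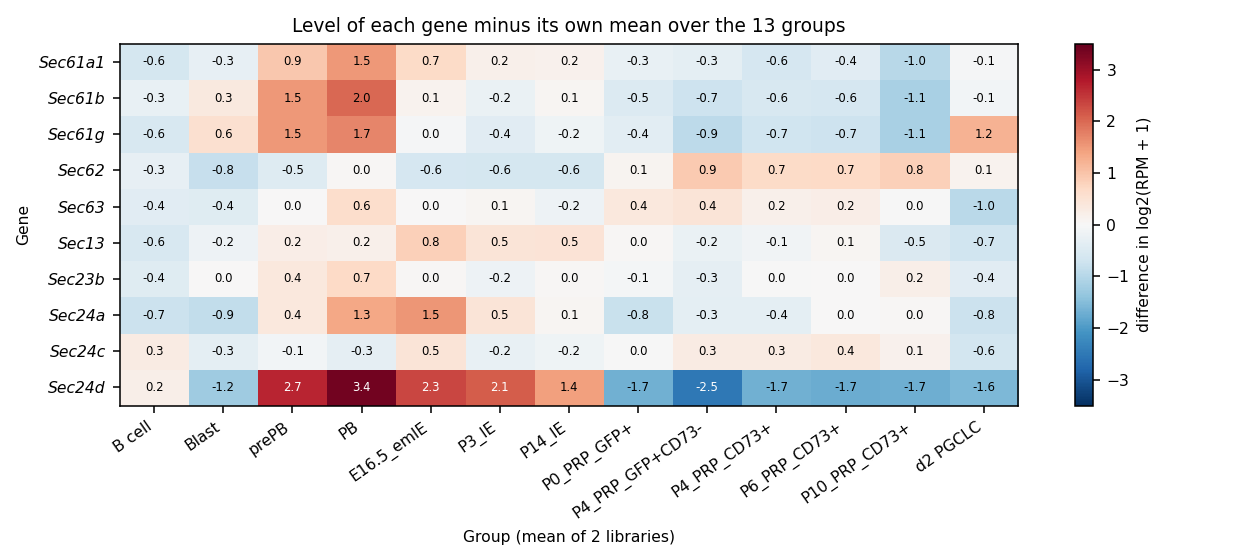
Mean log2(RPM + 1) of each gene in each of the 13 groups, minus that gene's own mean over the groups, so that rows can be compared in shape but not in level. Sec24d spans -2.51 in P4_PRP_GFP+CD73- to 3.38 in PB, and Sec62 has its high values in the retina on RPM as deposited, though PB against the retina changed sign after scaling.

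The rest of the export pathway was taken from lists of known partners. Of 9 translocon partners 6 rose and 1, Sec61a2, fell in PB against Blast, where 6.66% of all genes rose and 30.9% fell. Tram2, a translocon-associated membrane protein, had 109.1 ± 1.5 RPM in PB and 11.9 ± 8.9 RPM in Blast, and Ssr2, of the TRAP complex, 823 ± 110 RPM in PB and 152 ± 23 RPM in Blast (SD, n = 2 each). Of 5 signal peptidase genes, whose product trims the entry signal, 4 rose, with Spcs1 at a log2 change of 2.29 ± 0.16 (limma adjusted p = 4.53e-08) and Sec11c at 2.19 ± 0.15 (limma adjusted p = 4.95e-08). Of 11 oligosaccharyltransferase genes found, which attach sugar chains, 7 rose and none fell, among them Krtcap2, Ddost and Rpn1 at 1.98, 1.95 and 1.66. After scaling 7 of the 9 translocon partners, 4 of the 5 signal peptidase genes and 9 of the 11 oligosaccharyltransferase genes rose. Of 10 genes of the signal recognition particle and its receptor 3 rose, namely Srprb, Srpr and Srp9 at 2.08, 1.67 and 1.05, and 8 of the 10 rose after scaling, where 13.3% of all genes did.

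Of 10 other COPII and ER exit site genes tested of 13 listed, 1 rose in PB against Blast, Preb, the exchange factor that loads Sar1, and 1 fell, Sec24b. Of all genes tested there, 6.66% rose and 30.9% fell. Preb had 196 and 177 RPM in PB and 84.5 and 87.9 RPM in Blast, a change of 1.10 ± 0.18 (limma adjusted p = 0.000125). Sec31a, the partner of Sec13 in the outer cage, was at 205 and 182 RPM in PB and 100.8 and 99.1 RPM in Blast, a change of 0.94 ± 0.15 under the fold threshold. Sec16a was at 0.81 ± 0.19, Sar1a at 0.52 ± 0.16 and Sar1b at 0.34 ± 0.25, and Sec16b and Sec31b were too low to test, with at most 2.28 and 1.02 RPM in Blast and PB. After scaling 6 of these 10 rose, where 13.3% of all genes did, and Sec24b no longer fell. The difference in counts between the translocon and COPII sides was not itself tested. Cargo receptors rose in 4 of 15 cases (Ergic1, Lman1, Surf4 and Tmed10), beside the same 6.66% of all genes. COPI coat genes, of the return route, rose in 3 of 10 (Copz2, Cope and Copa). Copz2 and Copa were low, with 5.56 and 7.43 RPM in PB and 0.81 and 2.92 RPM in Blast. After scaling 10 of 15 cargo receptors and 8 of 10 COPI genes rose, beside 13.3% of all genes.

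Secretory transcription factors rose in 7 of 9 cases in PB against Blast, where 6.66% of all genes rose. Prdm1, which encodes the reporter's protein, had 212 ± 43 RPM in PB and 2.81 ± 0.70 RPM in Blast (SD, n = 2 each). Bhlha15 was at 166.8 ± 3.0 RPM in PB and 4.06 ± 2.88 RPM in Blast, and Creb3l2 at 78.6 ± 9.5 RPM in PB and 3.34 ± 2.22 RPM in Blast. Median log2 changes in PB against Blast were 1.16 for translocon partners, 1.56 for signal peptidase, 1.12 for oligosaccharyltransferase, 0.55 for the signal recognition particle, 0.66 for COPII, 0.68 for cargo receptors, 0.52 for COPI, -1.53 for the nuclear pore Y complex and 2.50 for the transcription factors, beside -0.64 for all genes. The sort used the reporter for Prdm1, so its difference follows from the gate.

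In PB against the intestine 5 COPII genes fell and 1 rose (Sar1a) of 11 tested, on RPM as deposited, where 37.6% of all genes fell and 9.33% rose. After scaling 1 fell and 3 rose, where 25.4% of genes fell and 17.7% rose. Sec31a stood at 205 and 182 RPM in PB against 243 to 382 RPM in the intestine, and Sec16b, an exit site scaffold, at 0 and 0.234 RPM in PB against 21.1 to 65.8 RPM in the intestine. Signal peptidase kept 4 of 5 higher in PB against the intestine, the retina and d2 PGCLC alike, where 9.33%, 11.1% and 10.1% of all genes rose.

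For each member the gene most like it in pattern was sought by Pearson correlation over the 13 group means of log2(RPM + 1), among 14130 other genes, as a description with no test. Sec61a1 was closest to Ddost (r = 0.981) and Sec61b to Ostc (r = 0.964), both subunits of oligosaccharyltransferase. Sec61g was closest to its near copy Gm10177 (r = 0.996), with which it may share reads. Sec24d was closest to Pon3 (r = 0.953), then Cmpk1 (0.929), Mcoln2 (0.923), Fkbp11 (0.922) and Rrbp1 (0.913). Rrbp1, a ribosome-binding ER membrane protein, had its highest mean of 315 RPM in E16.5_emIE, and Fkbp11, an ER-resident prolyl isomerase, its highest of 256 RPM in PB. Sec24a was closest to Creg1 (0.917), Sec24c to Pcsk7 (0.9201), Sec23b to Mfsd4 (0.895), Sec13 to Fads3 (0.888), Sec63 to C630004H02Rik (0.900) and Sec62 to BC022960 (0.958). Within the set the closest pair was Sec61a1 and Sec61b (r = 0.905) and the most opposed was Sec61g and Sec24c (r = -0.687). These points share libraries and the same scaling, and 4 of the 13 are B-lineage groups.

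The 10 genes lie apart in the genome (GRCm38.p6, RefSeq gene spans). Sec24d is at chr3:123264801-123365641 and Sec62 on the same chromosome at chr3:30792876-30821263. Sec61g (chr11:16501638-16508484) and Sec24a (chr11:51692263-51757161) share chromosome 11, and Sec61a1 (chr6:88503607-88518800) and Sec13 (chr6:113728052-113740681) share chromosome 6. Sec61b is at chr4:47474661-47483233, Sec63 at chr10:42761496-42832514, Sec24c at chr14:20674285-20694852 and Sec23b at chr2:144556229-144590753, where its span overlaps that of the lncRNA Gm34292. All 10 are annotated as protein-coding.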

How the data were processed

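The authors deposited 1 table of RPM values for 26 mouse libraries, named a signal here because some columns, summed over all lines, exceed 1000000, while the lines used sum to less. Per the submitters' processing notes, cutadapt 1.11, TopHat 1.4.1, Bowtie 1.0.1 and Cufflinks 2.2.0 were used with mm10. Of 26310 lines, 92 spike-in lines and 1072 lines whose gene names stood out of place (4.09%) were left out, leaving 25146. Values were tested as log2(RPM + 1) with limma 3.58.1 (R 4.3.3) in a moderated two-sided test with Benjamini-Hochberg adjustment. Genes needed 5 RPM in 2 samples, and each lineage had its own fit (8 B-lineage, 6 intestinal and 10 retinal libraries), while comparisons across lineages used all 26. A call needed an adjusted p under 0.05 and a log2 change of at least 1 in size. The script was tested on simulated data. Near copies were sought with BLAST 2.17.0 in GENCODE transcripts, and promoters are from RefSeq. Figures used matplotlib 3.10.9.

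The genes and lists were chosen with earlier results of these data known. All 10 members were named, as were their paralogs and other COPII genes. From each other list some or all of the 3 most changed genes called in PB against Blast were named. Since depth was about 1720000 to 6040000 reads, the precision of low genes is limited by counting. Alternatives were pseudocounts of 0.5 and 5 RPM, no filter, median-of-ratios and quantile scaling, another set of samples in the fit, a replicate block and leaving out each library.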

Additional observations from a re-analysis of the deposited data

How the results depend on the processing

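Over 140 results (10 members in 14 comparisons), none reversed a call. The replicate block, no filter on low values and another set of samples in the fit changed no call. A pseudocount of 0.5 RPM added 1 call and one of 5 RPM removed 1. The numbers shared by replicates are not said to pair samples, and their deviations correlated at -0.0376 to 0.235. With the block, 6 members were called in PB against Blast and 4 in prePB against Blast, as without it. Scaling mattered most: median-of-ratios scaling added 21 calls of 136 and quantile normalization 18 of 140. Members called were 4 and 3 under these in PB against prePB (0 as deposited), 8 and 8 in PB against the intestine (4 as deposited), and 8 and 8 in PB against the retina (5 as deposited). Sec24d did not pass the filter in the retina after median-of-ratios scaling, which gave no value there. Leaving out 1 library in turn left 662 values on their side of the call, while 9 calls were gained and 9 lost. In prePB against Blast these runs put Sec24a and Sec61a1 at 0.99, Sec61b at 0.98 and Sec61g at 1.29. In PB against Blast, Sec61g and Sec63 were each at 0.79 without Blast replicate 2. In PB against B cell Sec63 reached 1.09 and Sec13 1.04. In Blast against B cell Sec61g was at 0.79 without Blast replicate 1 and Sec24d at -0.95 without Blast replicate 2. In PB against prePB Sec24a was at 1.23 without prePB replicate 2 and at 1.08 without PB replicate 2. In P3_IE against E16.5_emIE Sec24a was at -0.87 without E16.5_emIE replicate 2. In P4_PRP_GFP+CD73- against P0_PRP_GFP+ Sec24d was at -1.90 without P0_PRP_GFP+ replicate 1. In PB against d2 PGCLC, Sec23b was at 0.98 without d2 PGCLC replicate 2, and Sec13 at 1.16 without PB replicate 2. The Sec24a ratio difference ranged from 0.92 to 1.25. The causes were not tested. Low depth limits Sec24d in the retina and d2 PGCLC, with as few as 7 reads in P0_PRP_GFP+ replicate 1.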
